A study of Mus musculus with 6 samples.

Results

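The guanylate-binding proteins are a family of large GTPases whose genes are among the most strongly interferon-inducible in the mouse. The genes described here were chosen by symbol: Gbp2, Gbp3, Gbp4, Gbp5, Gbp6, Gbp7, Gbp8, Gbp9, Gbp10 and Gbp11, which are 10 of the 78298 genes in the deposited table. The rule that picks them uses symbols alone, though the family was taken up with earlier results of these data known. Guanylate-binding proteins bind GTP, hydrolyze it and assemble into coats on membranes, and they are best known for surrounding vacuoles and bacteria that have entered a cell. Their transcription is switched on downstream of interferon receptors, through transcription factors that include the interferon regulatory factors, in immune cells and in epithelial cells alike. On bacterial surfaces the coats help to expose lipopolysaccharide to caspase-11, which leads into pyroptosis.

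RENCA is an established line of mouse renal adenocarcinoma cells. The oe-AQP1 cells carried a lentivirus with the mouse Aqp1 coding sequence, a water channel, under the ubiquitin C promoter, and the oe-NC cells carried the same vector with no insert. Puromycin selection (14 days, 2 μg/mL) was the same for both groups, which received no other treatment and bear the same batch label, and total RNA from 3 samples of each was sequenced as paired-end reads. The labels call the 3 samples biological replicates but do not say whether they came from separate transductions, so the p-values cover only the spread among these samples. In its own comparison the study filtered out interferon-stimulated genes with transfection effects in mind, and here the insert and any effect of its delivery beyond what the empty vector covers cannot be told apart.

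The deposited values are expected counts, which are estimated read counts that need not be whole, and they summed to between 18385714 and 21920899 per sample. Levels are given as CPM, a gene's counts for every 1000000 counts of its sample after TMM scaling, whose factors lay between 0.993 and 1.006. Aqp1, the transgene, had 41, 25 and 45 counts in oe-NC samples 1 to 3 and 7713, 8545 and 7838 in the oe-AQP1 samples. Epithelial markers were present (Pax8, Pax2, Krt8, Krt18 and Cdh16) except Epcam, which was at 0 in all 6 samples. Among the libraries, oe-NC sample 1 stood apart: its chi-square per gene against the other 2 controls was 9.81 and 11.4, while the other pairs within a group lay between 1.71 and 2.04. Values without that sample are given where they bear on a result.

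Promoter sequence was at hand for 4 of the 10 members (Gbp2, Gbp3, Gbp5 and Gbp7) and for Gbp2b, a further gene of the family that lies between Gbp3 and Gbp2; Gbp4, Gbp6, Gbp8, Gbp9, Gbp10 and Gbp11 are named only. The windows come from RefSeq on the build GRCm38.p6 and run from 250 bases before to 50 bases after each annotated start. They were searched for the core of the interferon-stimulated response element (ISRE, spelled GAAA, any 2 bases and GAAA, which reads TTTC, any 2 bases and TTTC on the other strand) and for the gamma-activated sequence (GAS, spelled TTC, any 3 bases and GAA, the same on both strands). The ISRE core is the kind of element that interferon regulatory factors bind. The stretches below are the 60 bases around the ISRE core of each gene. They are shown because an ISRE core recurs along the cluster on chromosome 3, though its distance from the start differs between genes. Capitals mark the match, which in all 5 genes was on the reverse strand, and each stretch is written 5′ to 3′ on the plus strand, the strand of the genes.

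Gbp5, chr3:142496744-142496803: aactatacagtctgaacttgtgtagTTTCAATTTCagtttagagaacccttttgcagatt

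Gbp7, chr3:142530258-142530317: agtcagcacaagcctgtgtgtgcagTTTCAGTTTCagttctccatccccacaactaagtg

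Gbp3, chr3:142559974-142560033: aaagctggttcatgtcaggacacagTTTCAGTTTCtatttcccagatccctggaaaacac

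Gbp2b, chr3:142594685-142594744: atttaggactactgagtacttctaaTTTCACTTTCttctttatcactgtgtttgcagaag

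Gbp2, chr3:142620579-142620638: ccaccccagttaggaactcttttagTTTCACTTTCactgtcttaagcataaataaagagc

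The first capital lay 165 bases before the start in Gbp5, 53 in Gbp7, 45 in Gbp3, 137 in Gbp2b and 59 in Gbp2. Gbp7 and Gbp3 shared the 10 letters TTTCAGTTTC, and Gbp2 and Gbp2b shared TTTCACTTTC. In Gbp3 a further match, TTTCTATTTC, overlapped the one in capitals and began 39 bases before the start. Of the 5 windows of the 4 members (Gbp3 has 2 annotated starts), 4 held an ISRE core, against 3.44% of all 32851 windows in the table. The GAS was found in the windows of Gbp5 and Gbp7, at 2 places in each, and in 8.3% of all windows. In Gbp5 these were TTCTGGGAA, which began 245 bases before the start, and TTCTCAGAA, which began 52 bases before it. In Gbp7 they were TTCCAGGAA and TTCTCAGAA, which began 106 and 87 bases before the start. No GAS overlapped an ISRE core. A match of letters describes the sequence and does not show that a factor was bound in these cells.

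All 10 members rose in oe-AQP1 cells. In the fit over 15522 genes kept for testing (limma-voom, Benjamini-Hochberg FDR under 0.05), 10 of 10 were called higher and 0 lower, where 16% of all genes tested were called higher and 16.6% lower. With the study's second threshold, an absolute log2 fold change (log2FC) above 1, 9 of 10 were called higher and Gbp8 was not, against 4.39% of all genes higher and 0.844% lower. The groups did not overlap in CPM for any of the 10, as for 23.5% of all genes tested in that direction. The median log2FC of the members was 2.83, and the median of all genes tested was 0. Every member passed the filter on low counts, so no member is missing from these counts. Gbp11, with at most 6.05 counts in an oe-NC sample, passed it through the oe-AQP1 samples alone, which favored a call as higher. With no filter beyond 1 count it was also called higher (log2FC 3.85, limma-voom FDR 5.66e-06). In bulk RNA, more cells that express a gene and more RNA per cell cannot be told apart.

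**Figure D1:**
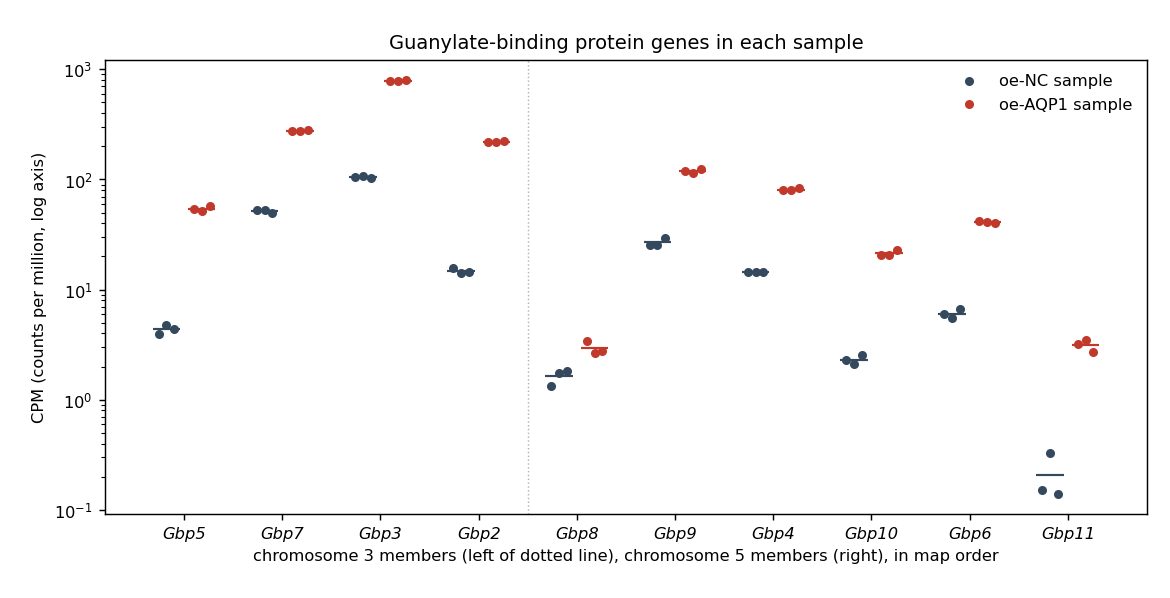
CPM of each member in each of the 6 samples on a log axis, oe-NC in dark blue and oe-AQP1 in red, with a horizontal line at each group mean; genes stand in map order, chromosome 3 on the left. For every gene the 3 oe-AQP1 points lie above the 3 oe-NC points, by the least for Gbp8 (1.33 to 1.83 CPM against 2.64 to 3.44).

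The 4 members on chromosome 3 lie on the plus strand within a span of 144 kb and include the most abundant transcripts of the family. Gbp2 (ENSMUSG00000028270, GRCm39 chr3:142326349-142343779) encodes a prenylated member that coats the vacuole of Toxoplasma gondii and intracellular bacteria. It had 15.8, 14.1 and 14.5 CPM in oe-NC samples 1 to 3 and 219, 217 and 222 CPM in oe-AQP1 samples 1 to 3. The lowest oe-AQP1 value was far above the highest control, and within each group the samples lay close together. The log2FC was 3.89 (SE 0.06, 95% interval 3.76 to 4.02, limma-voom FDR 1.96e-11), rank 60 of the 15522 genes tested. Gbp11 stood at rank 61 with a wide interval, and its estimate was above that of Gbp2 with edgeR's quasi-likelihood test (3.91 against 3.89) and DESeq2 (3.95 against 3.89), so the order of the 2 is not settled.

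Gbp3 (ENSMUSG00000028268, chr3:142265731-142278979) was the most abundant member in both groups. It had 106, 107 and 102.5 CPM in the oe-NC samples and 785, 785 and 792 CPM in the oe-AQP1 samples. Its log2FC of 2.91 (SE 0.03, limma-voom FDR 5.22e-12) had the smallest error in the family. Among all genes tested, Gbp3 went from rank 2368 by CPM in oe-NC to rank 104 in oe-AQP1. The protein name in the deposited annotation of this gene is that of guanylate-binding protein 4, and the name given for Gbp7 is Gbp6 protein. The gene symbols of the table are used here.

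Gbp5 (ENSMUSG00000105504, chr3:142199739-142228105) encodes a prenylated member known for promoting assembly of the NLRP3 inflammasome. It had 3.97, 4.76 and 4.41 CPM in the oe-NC samples and 54.0, 51.9 and 56.9 CPM in the oe-AQP1 samples. The samples of each group lay close together and far from the other group, with a log2FC of 3.63 (SE 0.11, limma-voom FDR 2.14e-09). The deposited table files this gene under nonsense-mediated decay, while GENCODE M39 lists it as protein-coding. An antisense lncRNA, Gm66604, overlaps 7.8% of its exon bases and 5.1% of those of Gbp7. No source used here says whether reads were counted by strand, and without strand the reads of a gene and its antisense partner cannot be told apart.

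Gbp7 (ENSMUSG00000040253, chr3:142236044-142255910) encodes a member required for control of T. gondii, on whose vacuole it is found. It had 52.9, 53.4 and 49.2 CPM in the oe-NC samples and 275, 274 and 279.5 CPM in the oe-AQP1 samples. Although the gap between groups was wide, its log2FC of 2.42 (SE 0.04, limma-voom FDR 6.08e-11) was the smallest on chromosome 3. A processed pseudogene on the same strand, Gm43802, covers 10.6% of its exon bases.

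Gbp2b (ENSMUSG00000040264, chr3:142300602-142324940), whose symbol falls outside the list, encodes a further prenylated protein and is the closest relative of Gbp2, with 82.5% identity over the coding sequence. It had 11.7, 11.3 and 11.9 CPM in the oe-NC samples and 159, 162 and 165 CPM in the oe-AQP1 samples. Its log2FC of 3.80 (SE 0.06, limma-voom FDR 2.76e-11) lay inside the 95% interval of Gbp2. Gbp2-ps, a pseudogene of the family, was at 0 in all 6 samples.

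The 6 members on chromosome 5 lie on the minus strand and are more alike in sequence than those on chromosome 3. Their log2FC spanned a wider range, but its ends were Gbp8 (0.84) and Gbp11 (3.87), the members with the fewest reads. The others on chromosome 5 lay between 2.15 and 3.19, and the members on chromosome 3 between 2.42 and 3.89. Gbp9 (ENSMUSG00000029298, chr5:105224332-105287452) had 25.7, 25.3 and 29.5 CPM in the oe-NC samples and 118, 115 and 124 CPM in the oe-AQP1 samples. Its log2FC was 2.15 (SE 0.06, limma-voom FDR 2.43e-09). Gbp4 (ENSMUSG00000079363, chr5:105263633-105287609), which the deposited annotation links to restraint of interferon-alpha production, had 14.4, 14.6 and 14.5 CPM in the oe-NC samples and 79.6, 79.7 and 83.0 CPM in the oe-AQP1 samples. Its groups were far apart and its control samples nearly equal, with a log2FC of 2.48 (SE 0.06, limma-voom FDR 3.64e-10).

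Gbp6 and Gbp10 are near-identical copies. Gbp6 (ENSMUSG00000104713, chr5:105418568-105443751) had 6.06, 5.47 and 6.66 CPM in the oe-NC samples and 41.8, 40.8 and 39.98 CPM in the oe-AQP1 samples. Gbp10 (ENSMUSG00000105096, chr5:105362773-105412666) had 2.29, 2.13 and 2.53 CPM in the oe-NC samples and 20.7, 20.8 and 23.0 CPM in the oe-AQP1 samples. The groups of both genes were well separated, with a log2FC of 2.74 for Gbp6 (SE 0.09, limma-voom FDR 5.11e-09) and of 3.19 for Gbp10 (SE 0.14, limma-voom FDR 5.17e-08). Each of these values is uncertain in its split. The coding sequences are 98.4% identical. Of the 75-base windows of the whole canonical Gbp6 transcript, 68.8% occur in the same form in a transcript of another gene of the family. In addition, Gm43302 (ENSMUSG00000079362, chr5:105362773-105441561), an annotated protein-coding gene on the same strand, covers 25.4% of the exon bases of Gbp6 and 44% of those of Gbp10. Gm43302 took more reads than either, with 317, 367 and 421 expected counts in the oe-NC samples and 2961, 3448 and 3122 in the oe-AQP1 samples (log2FC 3.04, limma-voom FDR 4.69e-10). The sum of the 3 genes does not depend on how reads were divided among them. It was 27.1 ± 2.29 CPM (SD, n = 3) in oe-NC and 215 ± 3.07 CPM in oe-AQP1, a ratio of 7.96. Whether Gbp9 or one of these copies was the most abundant on chromosome 5 depends on that division.

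Gbp11 (ENSMUSG00000092021, chr5:105470908-105494338) was the member nearest to absent in control cells. Its expected counts were 2.92, 6.05 and 3.00 in the oe-NC samples and 62.9, 77.4 and 55.95 in the oe-AQP1 samples, which is 0.153, 0.328 and 0.141 CPM against 3.19, 3.502 and 2.72 CPM. The log2FC of 3.87 was close to that of Gbp2, and its 95% interval of 3.05 to 4.69 was the widest of the family, with few reads in the controls (SE 0.37, limma-voom FDR 2.74e-05). The deposited table marks Gbp11 as a protein-coding gene with loss of function in the reference.

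Gbp8 (ENSMUSG00000034438, chr5:105162016-105287452) changed least. It had 1.33, 1.75 and 1.83 CPM in the oe-NC samples and 3.44, 2.64 and 2.77 CPM in the oe-AQP1 samples. The groups did not overlap, but the gap between them (0.808 CPM) was similar in size to the spread within the oe-AQP1 samples (0.801 CPM). Its log2FC was 0.84 (SE 0.20, 95% interval 0.39 to 1.28, limma-voom FDR 0.00952), and it was 0.69 (FDR 0.0227) without oe-NC sample 1. Since its upper limit of 1.28 lay below the lower limit of 2.00 for Gbp9, the next member, the intervals of Gbp8 and of the other 9 did not overlap. Gbp8 starts at the same annotated base as Gbp9 (both end at position 105287452 on the minus strand), and the 2 genes share 107 exon bases with each other and with Gbp4. For the other members, leaving out oe-NC sample 1 moved the log2FC by between -0.13 and 0.04.

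**Figure D2:**
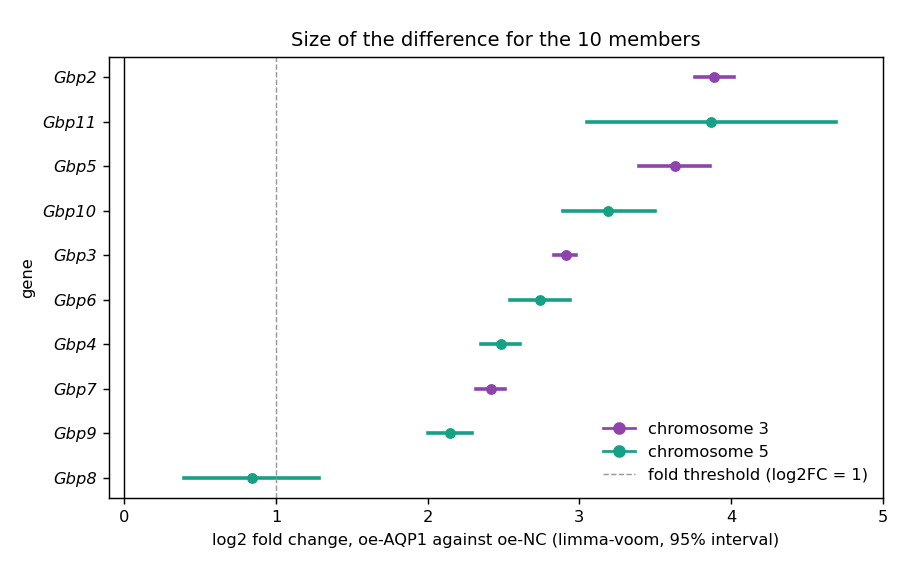
log2 fold change of each member, oe-AQP1 against oe-NC, as a point with its 95% interval from limma-voom, colored by chromosome, with a dashed line at the fold threshold of 1. Gbp2, Gbp11 and Gbp5 lie highest in this fit (3.89, 3.87 and 3.63), Gbp8 alone lies left of the threshold (0.84), and its interval crosses it.

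Reads that fit several paralogs can be assigned to the wrong member, so the summed level of each cluster was also taken. The 4 members on chromosome 3 summed to 178, 179 and 171 CPM in the oe-NC samples and to 1333, 1328.5 and 1351 CPM in the oe-AQP1 samples. This was a ratio of 7.60 (log2 ratio 2.93). Gbp2b lies within the same cluster but is not in this sum, with mean levels of 11.6 CPM in oe-NC and 162 CPM in oe-AQP1. The 6 members on chromosome 5 summed to 49.9, 49.6 and 55.2 CPM and to 267, 263 and 275 CPM, a ratio of 5.21 (log2 ratio 2.38). With Gm43302 in the sum, which was added after its overlap had been seen, the log2 ratio on chromosome 5 was 2.58. All 10 together went from 228 ± 1.55 CPM in oe-NC to 1606 ± 17.9 CPM in oe-AQP1 (SD, n = 3), a ratio of 7.06.

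The coding sequences fall into groups that follow the 2 loci in part. Pairs within chromosome 5 were 90.0% to 98.4% identical, with Gbp8 and Gbp11 at 93.8%. On chromosome 3, Gbp3 and Gbp7 were 78.3% identical to each other and 72.5% to 75.4% identical to the members on chromosome 5. Gbp2 and Gbp5 were 69.1% identical to each other, and Gbp2 and Gbp3 only 65.3%. Windows of 75 bases were also taken from each whole canonical transcript and looked up in the transcripts of all other genes of the family. At most 2.6% were found in the same form for the members on chromosome 3, against 3.4% to 70.4% on chromosome 5. All 10 carry the GTPase domain and the helical C-terminal domain of the family in the deposited annotation. The annotation also gives all 10 the terms GTPase activity, GTP binding and cellular response to interferon-gamma (316 genes in all). Of the 11 genes with the term symbiont-containing vacuole membrane, 8 were members, all but Gbp4 and Gbp5.

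Outside the 2 clusters the changes were small. Within 500 kb of the outer members, 12 other protein-coding genes are annotated, of which 8 had enough counts to be tested. Of these 8, 4 were called higher, 1 lower and 0 past the fold threshold in either direction. Over all genes tested, 16% were called higher and 16.6% lower. Their log2FC ranged from -0.27 to 0.55. Next to the cluster on chromosome 3, Pdlim5 had a log2FC of -0.27 (limma-voom FDR 0.000281), Kyat3 one of -0.15 (FDR 0.300), Gtf2b one of 0.27 (FDR 0.00402) and Pkn2 one of 0.21 (FDR 0.00265). On the chromosome 5 side the highest were Thoc2l (0.55, FDR 0.000818) and Zfp33b (0.43, FDR 0.0200), while Zfp951 and Lrrc8d had values of -0.02 and 0.

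**Figure D3:**
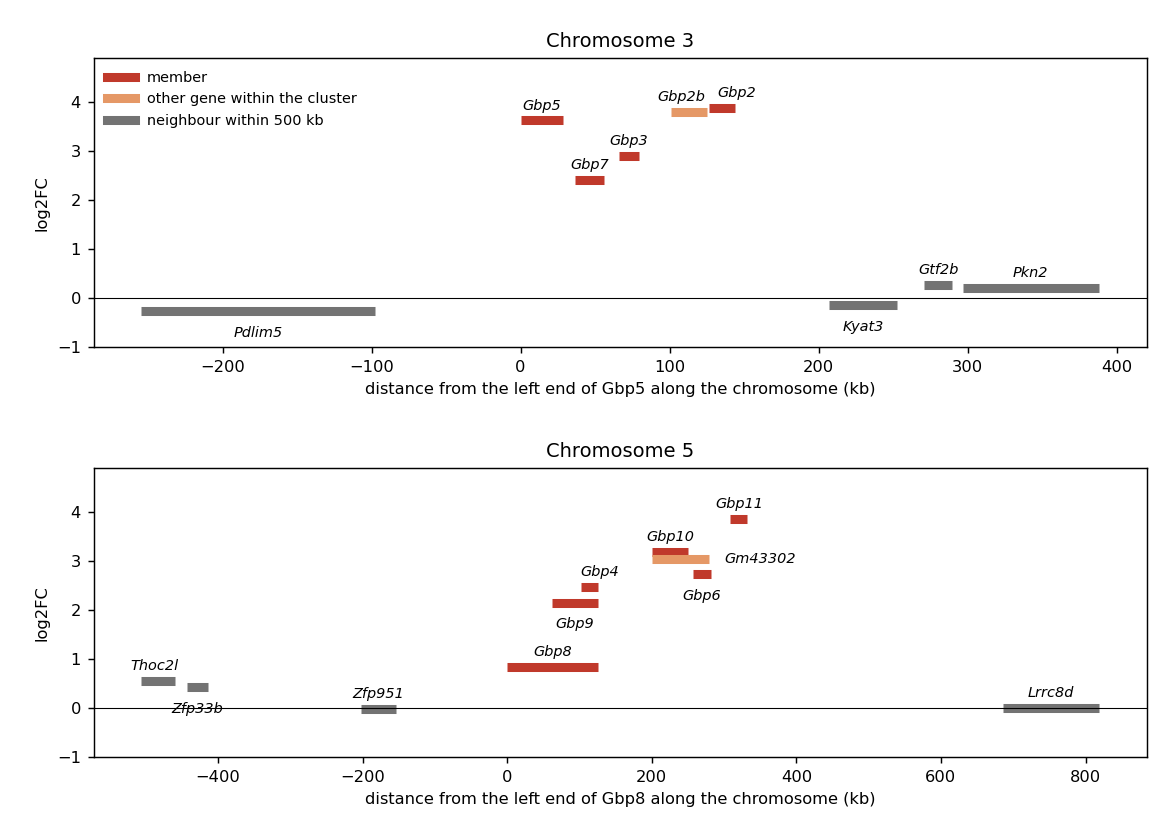
log2 fold change (vertical axis) of the genes along the 2 clusters, each bar spanning a gene's length in kb from the left end of Gbp5 on chromosome 3 (top) or of Gbp8 on chromosome 5 (bottom). Members are red, Gbp2b and Gm43302 orange, and tested protein-coding neighbors within 500 kb gray; 9 of the 10 members lie at 2.15 or above, and no neighbor lies above 0.55.

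Per length of exon, the family was led by the same genes in both groups, but their shares shifted. Levels were divided by the bases of all annotated exons of a gene, giving CPM per kb. In oe-NC the order was Gbp3 (24.7 ± 0.534), Gbp7 (8.65 ± 0.378), Gbp2 (5.79 ± 0.340), Gbp9 (2.78 ± 0.240), Gbp4 (1.49 ± 0.00702), Gbp6 (0.893 ± 0.0876), Gbp5 (0.601 ± 0.0540), Gbp10 (0.395 ± 0.0343), Gbp8 (0.363 ± 0.0603) and Gbp11 (0.0770 ± 0.0390) (SD, n = 3). Of neighbors in this order, Gbp10 and Gbp8 alone overlapped in their sample ranges. In oe-AQP1 the order was Gbp3 (185 ± 0.937), Gbp2 (85.7 ± 0.965), Gbp7 (46.1 ± 0.489), Gbp9 (12.3 ± 0.436), Gbp4 (8.33 ± 0.201), Gbp5 (7.44 ± 0.345), Gbp6 (6.02 ± 0.137), Gbp10 (3.67 ± 0.222), Gbp11 (1.17 ± 0.145) and Gbp8 (0.655 ± 0.0952), and no neighbors overlapped. Gbp2 thus passed Gbp7, Gbp5 passed Gbp6, and Gbp11 passed Gbp8, where the places of Gbp6 and Gbp10 rest on how their reads were divided with Gm43302. Gbp2b, which is outside this ranking, had 4.11 ± 0.117 in oe-NC, below Gbp7 and Gbp2. In oe-AQP1 it had 57.3 ± 1.07, above Gbp7 and below Gbp2. With the longest protein-coding transcript as the length, Gbp2 still passed Gbp7, but Gbp5 and Gbp6 had nearly equal levels in oe-NC (1.31 each), and Gbp11 and Gbp8 had nearly equal levels in oe-AQP1 (1.17 ± 0.145 and 1.18 ± 0.171).

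As a share of the 10 members' summed level per kb, Gbp2 rose from 12.6% ± 0.683 in oe-NC to 24.0% ± 0.0633 in oe-AQP1 (SD, n = 3). Gbp7 went from 18.9% ± 0.583 to 12.9% ± 0.0302 and Gbp9 from 6.07% ± 0.610 to 3.45% ± 0.0906. Gbp3 held 54.0% ± 0.558 and 51.97% ± 0.231, and its groups overlapped when the longest transcript gave the length. The smaller shares of Gbp5 (1.31% ± 0.122 to 2.09% ± 0.0778) and Gbp8 (0.794% ± 0.140 to 0.184% ± 0.0270) moved in opposite directions. None of these shares was tested.

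**Figure D4:**
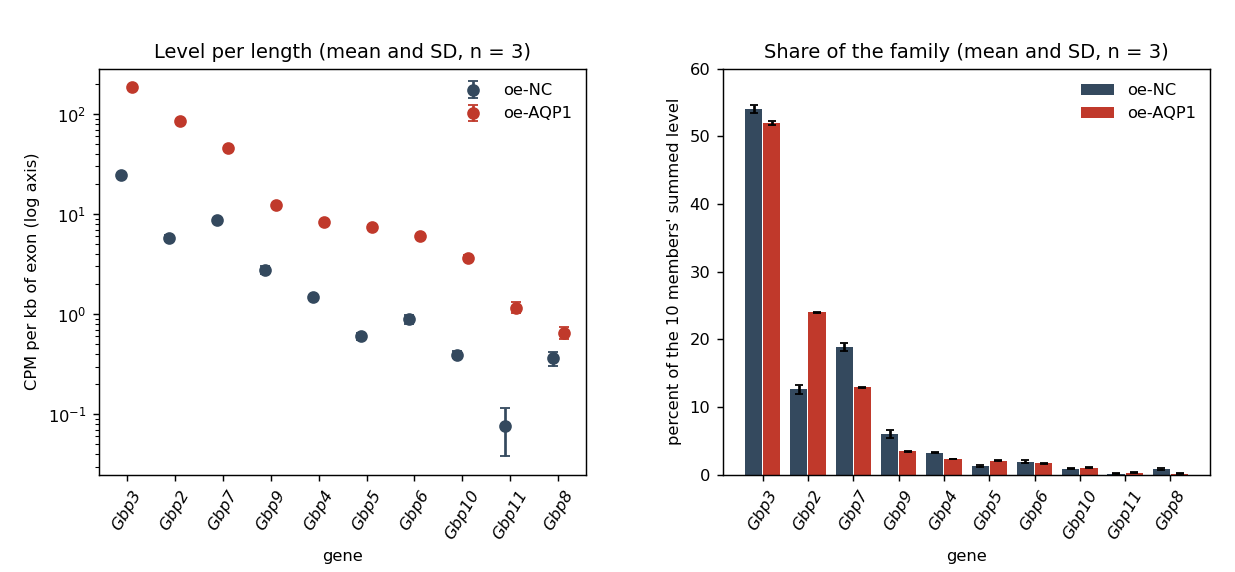
Left, CPM per kb of exon for the 10 members on a log axis; right, each member's percent of their summed level; points and bars are means of 3 samples and error bars the SD, oe-NC in dark blue and oe-AQP1 in red. Gbp3 is the highest in both groups, and the share of Gbp2 goes from 12.6% to 24.0% while that of Gbp7 goes from 18.9% to 12.9%.

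Genes of interferon signaling, which include receptors, activating factors and feedback inhibitors, were partly higher as well. Of 18 on the list, 10 were called higher and 2 lower (16% and 16.6% of all genes tested), with a median log2FC of 0.32. Stat2 and Irf9, which act together at the ISRE, had log2FC values of 1.97 (FDR 8.79e-11) and 0.68 (FDR 4.31e-07), and Irf1, which binds related elements, one of 1.43 (limma-voom FDR 2.54e-08). The largest increase of the list was in Irf5 (log2FC 4.32), with 7 to 8 counts per oe-NC sample and 141 to 180 per oe-AQP1 sample. Irf5 passed the filter on low counts through its oe-AQP1 samples alone, which favored a call as higher. Of the type I receptor chains, Ifnar2 was higher (log2FC 0.27, limma-voom FDR 0.00134) and Ifnar1 had a log2FC of -0.08 (FDR 0.240). Of the interferon-gamma receptor chains, Ifngr2 was higher (log2FC 0.37, FDR 0.00125) and Ifngr1 lower (log2FC -0.21, FDR 0.00561), the largest decrease of the list.

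Of 9 interferon genes examined, 2 had enough counts to be tested and both were called higher. Both passed the filter on low counts through their oe-AQP1 samples alone, which favored a call as higher. Ifnb1, a type I interferon, had 3, 6 and 5 counts in the oe-NC samples and 264, 288 and 277 in the oe-AQP1 samples (log2FC 5.72, SE 0.30, limma-voom FDR 2.60e-07). Ifna4 was at 0 in the oe-NC samples against 34, 23 and 23 counts in oe-AQP1 samples 1 to 3, at least 8.49-fold higher when 3 counts per library are taken as the floor. Ifng, the classical inducer of the family, had 0 counts in each of the 6 samples, and 4 more of the 9 genes were at 0 throughout.

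The immunity-related GTPases (IRG), smaller interferon-inducible GTPases that act on the same vacuoles, rose as well. Of 16 on the list, 11 were found in the table under these symbols. All 11 were tested and called higher past the fold threshold (4.39% of all genes tested), with a median log2FC of 3.58. Of these, Gm12250, Gm4841, Gm5431 and F830016B08Rik had few oe-NC counts. They passed the filter on low counts through the oe-AQP1 samples, which favored such a call. The largest increase was in Gm12250 (log2FC 6.13, FDR 4.62e-07). Counts for several of these genes were fractional, and near-identical copies such as Tgtp1 and Tgtp2 (log2FC 3.58 and 3.23) may share reads.

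Genes linked to the placing and modifying of guanylate-binding proteins gave a mixed picture. The list for recruitment and autophagy conjugation joins autophagy genes with galectins and a ubiquitin ligase. Of its 15 genes, 5 were called higher and 5 lower (median log2FC 0.01). Over all genes tested, 16% were called higher and 16.6% lower. Rnf213, a large ubiquitin ligase, had the largest increase (log2FC 1.74, FDR 3.64e-10), and Lgals8, a sensor of damaged vacuoles, had a log2FC of 1.13 (FDR 3.95e-08). Lgals3, a further galectin, had the largest decrease (log2FC -0.34, FDR 4.54e-05). Among the Atg genes, Atg12 and Atg16l1 were called higher (log2FC 0.14 and 0.16). Atg3, Atg5 and Atg7 were not called (log2FC 0.05, 0.01 and -0.13). Prenylation enzymes attach lipid anchors of the kind that Gbp2 and Gbp5 carry or process the protein's end afterwards. Of the 6 listed, 0 were called higher and 2 lower at an FDR under 0.05, against 16% and 16.6% of all genes tested. The 2 were Fnta (log2FC -0.25, limma-voom FDR 0.000919) and Icmt (log2FC -0.11, FDR 0.0486), and the median of the list was -0.10.

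Downstream, 6 of 11 inflammasome and pyroptosis genes could be tested. Of these, 4 were called higher and 0 lower (16% and 16.6% of all genes tested), with a median log2FC of 0.88. Casp4, the mouse gene of caspase-11, had the largest increase (log2FC 1.32, FDR 1.44e-08). Among the genes called it was followed by Gsdmd, which encodes the pore-forming gasdermin D (0.89, FDR 1.82e-07), and Casp1 (0.87, FDR 7.16e-06), while Il18 had a log2FC of 0.98 that did not pass (FDR 0.0840). Nlrp3, which Gbp5 acts upon, had at most 3 counts in any sample and was not tested. Among 11 related large GTPases tested, 2 were called higher and 2 lower, close to the shares over all genes tested (16% and 16.6%). Both that rose are interferon-inducible, Mx1 (log2FC 5.91) and Mx2 (log2FC 2.74), whereas the atlastins, relatives of the family in the endoplasmic reticulum, had log2FC values of -0.06 (Atl1), 0.15 (Atl2) and -0.09 (Atl3), none past the threshold (FDR 0.680, 0.0760 and 0.303).

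**Figure D5:**
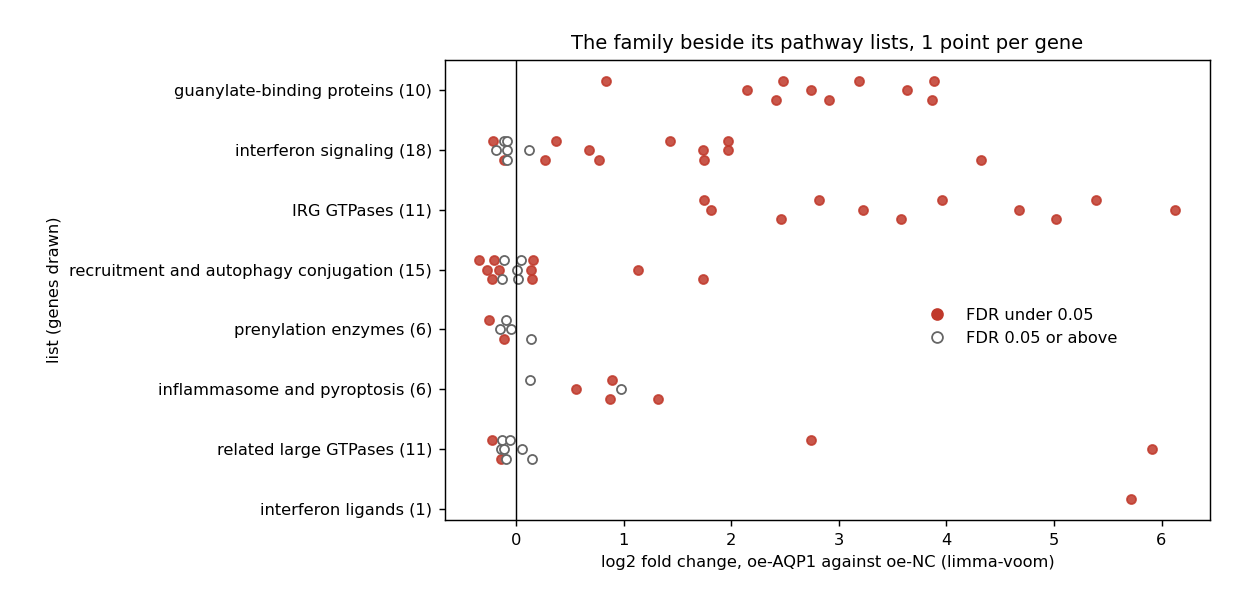
log2 fold change of each tested gene in the family and in 7 lists of related genes, 1 point per gene, filled where the limma-voom FDR was under 0.05; Ifna4, at 0 in the oe-NC samples, is not drawn. All 10 members and all 11 IRG genes lie right of 0, while the recruitment, prenylation and large GTPase lists lie around 0, with medians of 0.01, -0.10 and -0.09, apart from Rnf213, Lgals8, Mx1 and Mx2.

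Markers of other cell types were read beside these results, since leukocytes also express the family. Of 10 macrophage and leukocyte markers, 4 (Adgre1, C1qa, C1qb and C1qc) were at 0 in all samples. The summed level of the list was 69.3 to 71.3 CPM in oe-NC and 59.0 to 62.2 CPM in oe-AQP1. Of the 4 tested (Cd68, Lyz2, Cd14 and Csf1r), 0 were called higher and 2 lower, against 16% and 16.6% of all genes tested. The 2 were Csf1r (log2FC -1.51, limma-voom FDR 1.31e-05), past the fold threshold, and Lyz2 (log2FC -0.52, FDR 0.000273). The lymphocyte list summed to at most 0.328 CPM in any sample and the endothelial list to at most 1.59 CPM. The fibroblast list went from 18.1 to 26.6 CPM in oe-NC to 12.6 to 13.8 CPM in oe-AQP1, nearly all of it Col1a1. Of 7 renal epithelial markers tested, 4 were called lower and 0 higher, against 16.6% and 16% of all genes tested. The part of any of these in the family's increase was not tested.

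Over the 6 samples, the 5 genes whose log2 CPM followed the mean of the members most closely were Parp14 (Pearson r 0.99997), Rigi (0.99993), Ifi207 (0.99992), Lgals9 (0.99992) and Zbp1 (0.99991). Because the 6 samples form 2 groups, such values mostly record the difference between the groups, and 407 of 15512 other genes had an r above 0.99. The 5 genes differed in the size of their increase, from a log2FC of 1.34 for Lgals9 to 3.32 for Zbp1.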

How the data were processed

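Per the labels, RENCA cells with an Aqp1 lentivirus (oe-AQP1, n = 3) or its empty vector (oe-NC, n = 3) were sequenced from TruSeq libraries. The authors deposited unscaled expected counts per gene. The paper names GRCm39, and the submitters' processing notes list GRCm38, mm10, fastp, HISAT2, Subread and featureCounts. Since 31.1% of the nonzero values are fractional (more than 0.005 from a whole number), the way multi-mapping reads were counted is not settled, which bears on near-identical members. Counts were rounded, filtered with filterByExpr, scaled by TMM (edgeR 4.0.16) and tested with limma-voom 3.58.1 in R 4.3.3. CPM correlations used a prior count of 2. The deposited group means were not used. Positions, exon lengths and coding sequences came from GENCODE M39, in which 78168 of 78298 genes were found. Members, lists and the naming rule (all members, Aqp1, other Gbp symbols, list extremes, interferon regulators, neighbors and the 5 most alike genes) were chosen with earlier results of these data known, and Lgals8, Gsdmd, Casp1, Mx2, the atlastins and Tgtp2 were added after values were seen. Counting error alone limits genes of a few counts, such as Gbp11. The alternatives tried were DESeq2 1.42.0, the quasi-likelihood test of edgeR, quality weights, other scalings, filters, unrounded counts, a replicate block and leaving out each sample. Scripts were tested on simulated data. A gene of the interferon signaling list is not reported here and was left out of its counts.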

Additional observations from a re-analysis of the deposited data

How the results depend on the processing

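All 10 members were called higher, 9 of them past the fold threshold, in all 17 alternative fits. Gbp8 ranged from a log2FC of 0.69 to 0.93 with an FDR of at most 0.0373, and Gbp11 from 3.66 to 4.20. The summary values that moved were these: the log2 ratio of chromosome 5 was 2.58 with Gm43302 added (chosen after seeing the data), and the share of Gbp3 in oe-AQP1 was 48.66% with the longest transcript. Some counts in the lists moved. For interferon signaling, 1 gene was lower with edgeR's quasi-likelihood test, DESeq2, library size alone, a CPM above 1 in 3 samples, a mean of 20 counts or the replicate block. For prenylation enzymes, 1 was lower with DESeq2, library size alone, either of those filters or the block, and 4 with quality weights, and 1 was higher with library size alone. For recruitment and autophagy conjugation, 3 were higher with DESeq2 or no filter. For the related large GTPases, 4 were lower with quality weights, and with a mean of 20 counts 1 interferon ligand was higher. Leaving out each sample in turn gave 1 to 2 lower for interferon signaling, 3 to 5 higher and 3 to 6 lower for recruitment and autophagy conjugation, 1 to 3 lower for prenylation enzymes and 1 to 4 lower for the related large GTPases (4 without oe-NC sample 1). The cause of these moves was not tested. Replicate numbers did not pair the samples: deviations of same-numbered samples from their group means had correlations of -0.063, 0.108 and -0.08, and only the samples numbered 2 correlated best with their own number. With the replicate block 2346 genes were called higher and 2479 lower over all genes, and the calls of the members did not change. The main fit called 2481 higher and 2569 lower, and the fit without oe-NC sample 1 called 3125 and 3331. Leaving out any other sample gave 1856 to 2174 higher and 1745 to 2347 lower. The shares over all genes tested therefore depend on the samples used. Depth limits Gbp8 and Gbp11, which had at most 38.95 and 6.05 counts in the oe-NC samples.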
